A study of Homo sapiens with 6 samples.

Results

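The HOX, PAX, LHX, GATA and TBX genes code for transcription factors that lay out the body plan and the organs of the embryo. HOX genes sit in 4 clusters and give cells their position along the head to tail axis. PAX factors carry a paired domain, LHX factors a LIM and a homeodomain, GATA factors zinc fingers and TBX factors a T-box, and each family directs particular tissues. In pluripotent stem cells most of these genes are known to be silent and held by Polycomb complexes, although expression was not measured here. MAR-seq sequences the DNA that stays behind with the nuclear matrix, meaning the scaffold of proteins and RNA that remains once soluble material and loose DNA are removed from a nucleus.

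Members were the autosomal protein-coding genes with a symbol of HOXA to HOXD, PAX, LHX or TBX and a number, or of GATA2 to GATA6. This gave 73 of 19126 autosomal protein-coding genes, of which 39 were HOX genes (11 HOXA, 10 HOXB, 9 HOXC and 9 HOXD), 9 PAX, 8 LHX, 5 GATA and 12 TBX genes. Regions were counted in a window made of the gene body and 10 kb on each side. A region counted when it overlapped the window by at least 1 bp.

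The 6 samples came from H1, a line of human embryonic stem cells, and formed 3 groups of 2 samples each. The hPSC group had no treatment. The shHNRNPU group carried an shRNA that targets HNRNPU, whose product is an abundant RNA-binding component of the matrix, and the shLUC group carried one that targets LUC, which served as the hairpin control. All groups were kept in mTeSR1 medium on Matrigel, and their labelled cell type could not be checked against markers because the lists hold no expression. A single list of 400 bp regions stood for each group, with 40106 regions in hPSC, 39368 in shLUC and 36277 in shHNRNPU. The lists carry no height, depth or replicate value, so no difference between lists could be tested, and knockdown of HNRNPU could not be checked in them. Intervals below are exact 95% binomial or Poisson intervals, which cover counting error only and treat genes or regions as independent. Neighbouring HOX genes share regions, so the true uncertainty is wider. Regions common to shLUC and shHNRNPU almost always had the same coordinates (18226 of 18229 in all gene windows), and how the positions were set was not stated.

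The members were dense in matrix regions in each list. Their joined windows spanned 2.64 Mb and held 87 distinct hPSC regions, 100 shLUC regions and 87 shHNRNPU regions. This was 33.0 regions per Mb in hPSC (interval 26.4 to 40.7) against 18.5 in the windows of all autosomal protein-coding genes. In shLUC it was 37.9 per Mb (interval 30.8 to 46.1) against 18.1, and in shHNRNPU 33.0 per Mb (interval 26.4 to 40.7) against 16.8. On the log2 scale the members thus lay above all genes by 0.83 in hPSC, 1.06 in shLUC and 0.97 in shHNRNPU. The density was highest at HOX genes, with 49.1, 62.3 and 58.5 regions per Mb in hPSC, shLUC and shHNRNPU. The PAX, LHX, GATA and TBX genes together had 28.9, 31.8 and 26.6 regions per Mb in the same order. Single families did not all stand out. GATA genes had 18.4 per Mb in hPSC (interval 5.97 to 42.9), near the value of all genes. Intervals also include that value for HOXA, HOXB, HOXC and LHX in hPSC, and for HOXB, GATA and TBX in shLUC. In shHNRNPU they include it for HOXB, HOXC, PAX and TBX.

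**Figure D1:**
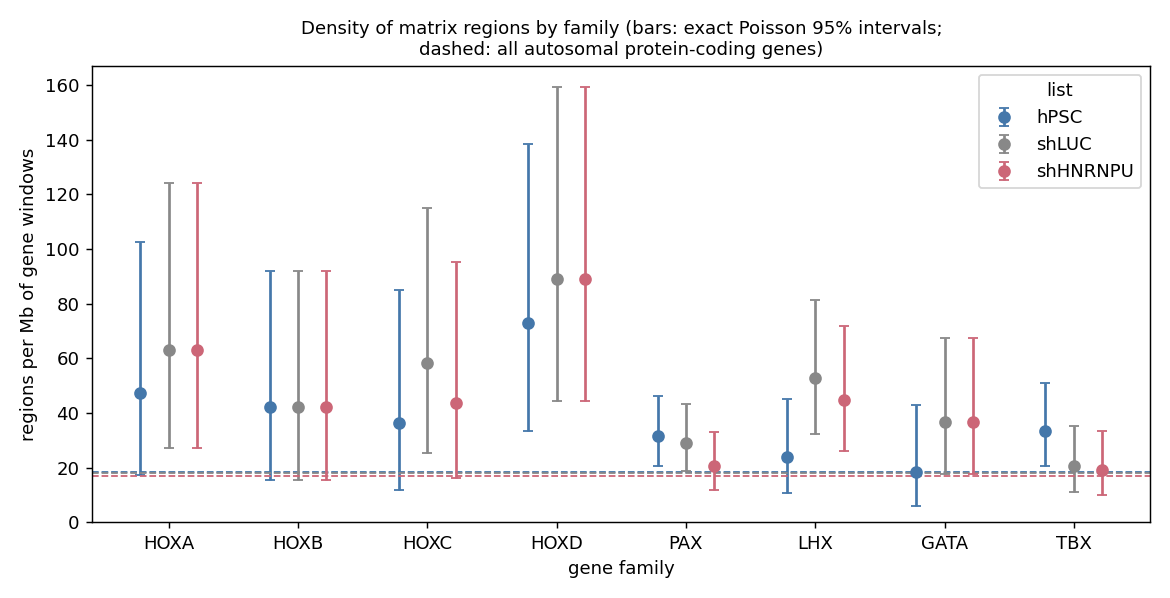
Regions per Mb of joined gene windows (y axis) for the 8 gene families (x axis) in the hPSC, shLUC and shHNRNPU lists. Points are the values, vertical bars exact Poisson 95% intervals and dashed lines the values for all autosomal protein-coding genes. HOXD stands highest, with 72.9 per Mb in hPSC and 89.1 in each hairpin list, and TBX is near the dashed lines in the hairpin lists (20.6 and 19.0) but not in hPSC (33.3). GATA is near the dashed line in hPSC (18.4).

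Most members had at least 1 region. In hPSC 63 of 73 members did (86.3%, interval 76.2 to 93.2%), against a background of 76.3% of all genes. In shLUC it was 62 members (84.9%, interval 74.6 to 92.2%) against 70.5%, and in shHNRNPU 61 members (83.6%, interval 73.0 to 91.2%) against 69.3%. The median window of members was 29.3 kb against 44.5 kb for all genes, so windows of like length were also set side by side. The short members were mainly HOX genes (median window 23.8 kb), while the other 34 members had a median of 47.9 kb. In windows under 25 kb, which held 25 members, 84.0% of members had an hPSC region, 76.0% a shLUC region and 80.0% a shHNRNPU region. The shares of all 2954 genes with such windows were 54.1%, 49.0% and 47.1%. Densities in these short windows were 52.8, 62.8 and 60.3 regions per Mb for members and 32.0, 29.0 and 27.2 for all genes. In windows of 25 to 50 kb, with 30 members, they were 41.4, 54.9 and 43.5 against 29.7, 26.5 and 25.0. In windows of 50 to 100 kb, with 12 members, they were 30.5, 33.0 and 30.5 against 22.9, 21.3 and 19.9. The hPSC intervals of both classes (29.6 to 56.4 and 19.5 to 45.3) include the value of all genes. So does the shHNRNPU interval at 50 to 100 kb (19.5 to 45.3). In windows of 100 kb or more, with 6 members, the densities were 25.5, 23.1 and 20.7 against 15.4, 15.9 and 14.6. The shLUC interval of these 6 members (13.9 to 36.1) includes the value of all genes, and so does the shHNRNPU interval. Their mean number of regions per gene was below that of all genes with such windows, with 3.50 against 3.79 in hPSC, 3.17 against 3.92 in shLUC and 2.83 against 3.59 in shHNRNPU.

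A region in each of the 3 lists was found for 49 members (67.1%), against a background of 53.3% of all genes. Only HOXB4 had no region in any list, which is 1 of 73 members against 10.9% of all genes.

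**Figure D2:**
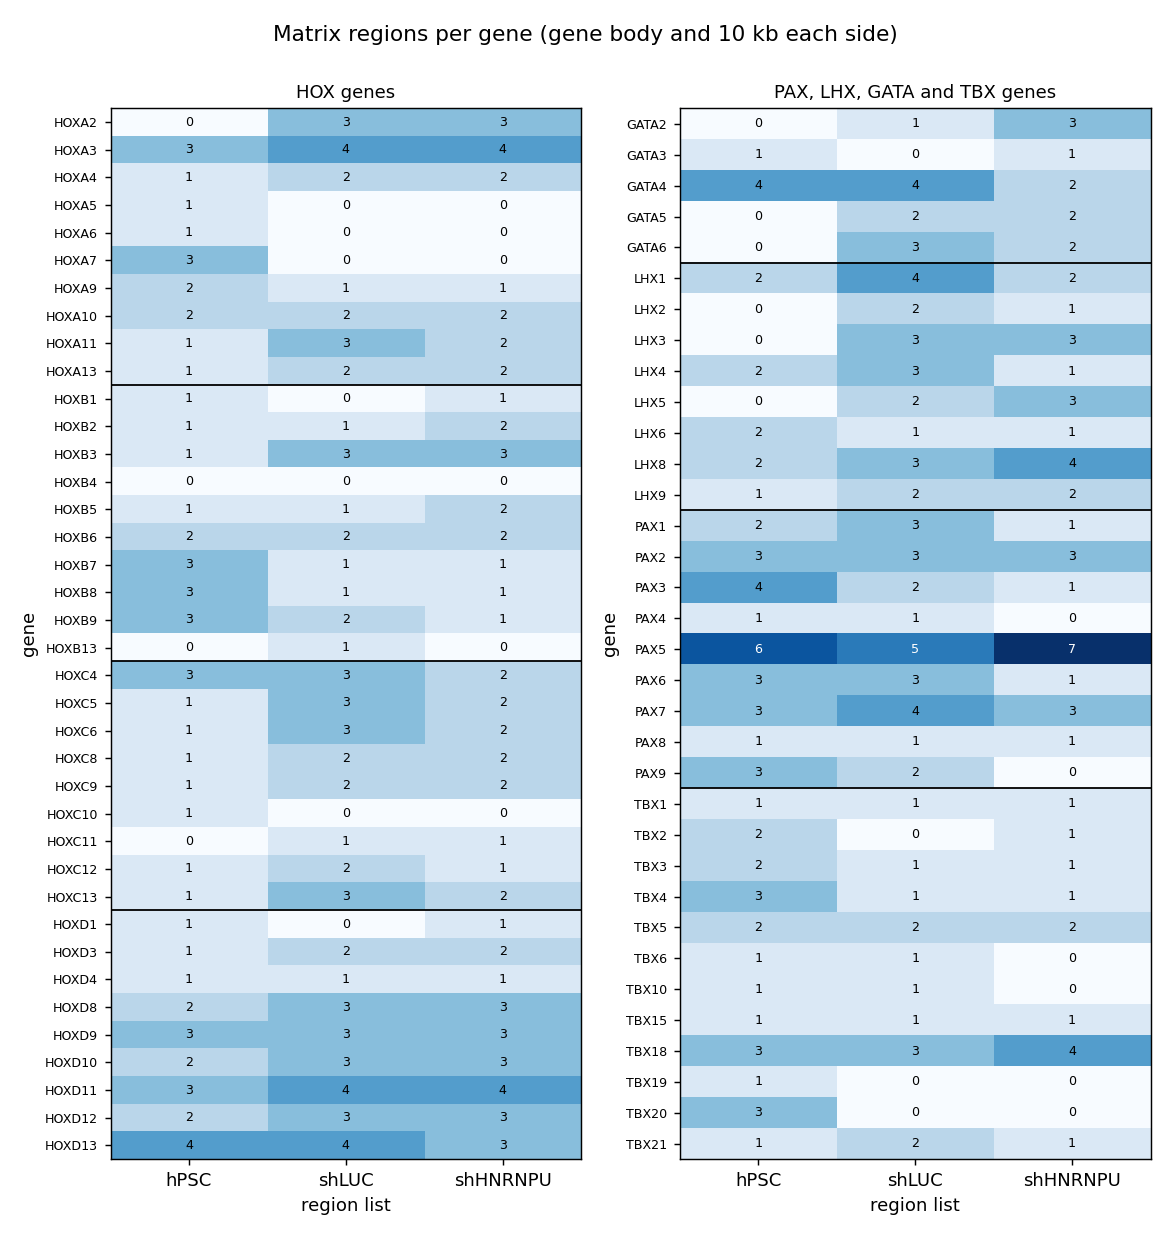
Number of regions overlapping the gene body and 10 kb each side for the members (rows, 1 HOXA gene not shown) in the hPSC, shLUC and shHNRNPU lists (columns), printed in each cell and shaded from 0 to 7. PAX5 holds the most (6, 5 and 7), HOXA5, HOXA6 and HOXA7 have regions in hPSC only, and GATA2, GATA5, GATA6, LHX2, LHX3 and LHX5 have regions in the hairpin lists only.

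Sequence is shown for members with a region at a gene start, to show where the regions of the 3 lists end relative to it. Each line gives the 250 bases before a RefSeq start of the gene (GRCh38.p14), read 5′ to 3′ on the strand of the gene, and capitals mark bases inside a shLUC or shHNRNPU region. HOXA4, HOXD3, LHX3 and HOXD1 lie on the minus, plus, minus and plus strand at chr7:27130758-27131007, chr2:176157057-176157306, chr9:136205129-136205378 and chr2:176188418-176188667, and HOXA3 on the minus strand at chr7:27122373-27122622. The HOXA3 and HOXD3 starts are inner starts of these genes.
HOXA4: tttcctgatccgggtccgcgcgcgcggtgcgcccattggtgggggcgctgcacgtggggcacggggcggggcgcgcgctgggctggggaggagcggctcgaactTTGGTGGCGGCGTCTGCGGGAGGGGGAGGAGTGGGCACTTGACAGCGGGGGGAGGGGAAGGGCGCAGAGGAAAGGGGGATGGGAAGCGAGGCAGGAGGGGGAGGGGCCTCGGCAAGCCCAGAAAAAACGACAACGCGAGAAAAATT
HOXD3: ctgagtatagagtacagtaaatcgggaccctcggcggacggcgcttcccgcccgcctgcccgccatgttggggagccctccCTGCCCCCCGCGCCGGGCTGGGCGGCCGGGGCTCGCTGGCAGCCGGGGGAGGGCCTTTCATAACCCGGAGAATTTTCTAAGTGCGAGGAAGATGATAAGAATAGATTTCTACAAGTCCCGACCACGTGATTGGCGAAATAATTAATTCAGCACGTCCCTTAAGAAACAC
LHX3: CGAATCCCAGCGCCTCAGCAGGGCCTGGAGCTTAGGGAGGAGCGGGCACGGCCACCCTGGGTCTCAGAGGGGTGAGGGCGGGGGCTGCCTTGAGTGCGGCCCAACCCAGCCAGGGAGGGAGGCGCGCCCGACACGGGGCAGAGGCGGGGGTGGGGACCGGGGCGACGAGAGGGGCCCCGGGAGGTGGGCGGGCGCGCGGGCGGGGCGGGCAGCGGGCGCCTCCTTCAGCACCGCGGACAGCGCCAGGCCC
HOXD1: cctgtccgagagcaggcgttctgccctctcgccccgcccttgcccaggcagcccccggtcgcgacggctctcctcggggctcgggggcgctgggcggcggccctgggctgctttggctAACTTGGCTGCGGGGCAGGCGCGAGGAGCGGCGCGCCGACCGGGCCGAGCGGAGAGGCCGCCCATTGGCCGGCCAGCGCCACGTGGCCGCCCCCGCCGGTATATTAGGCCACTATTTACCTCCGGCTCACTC
HOXA3: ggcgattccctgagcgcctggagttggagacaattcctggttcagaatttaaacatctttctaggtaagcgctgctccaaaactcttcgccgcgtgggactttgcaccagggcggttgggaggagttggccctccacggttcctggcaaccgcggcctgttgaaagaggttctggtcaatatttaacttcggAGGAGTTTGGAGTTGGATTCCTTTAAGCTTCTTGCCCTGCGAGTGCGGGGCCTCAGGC
At HOXA4 146 of the 250 bases lay in the region that shLUC and shHNRNPU shared, at HOXD3 169 and at LHX3 all 250, and no hPSC region touched these stretches. The HOXD1 capitals (132 bases) belong to a shHNRNPU region alone. The HOXA3 stretch was the one member start window reached by all 3 lists, with 58 bases in the hairpin region and 104 other bases in an hPSC region further upstream. G and C made up 70.0% of the HOXA4 stretch, 59.2% at HOXD3, 78.4% at LHX3, 74.8% at HOXD1 and 54.8% at HOXA3.

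The nuclei had been cut with MspI (CCGG), HaeIII (GGCC), RsaI (GTAC), AluI (AGCT), BamHI (GGATCC) and PvuII (CAGCTG), sites that read the same on both strands, and a PvuII site always holds an AluI site. They were counted in windows from 250 bases before to 50 after a gene start, which were given for 46 members with 77 starts. MspI sites were in 84.4% of member windows against 74.2% of the 21156 windows of all autosomal protein-coding genes, and HaeIII sites in 88.3% against 84.4%. RsaI sites were in 24.7% against 27.8%, AluI sites in 77.9% against 73.6%, BamHI sites in 7.79% against 7.22% and PvuII sites in 16.9% against 18.1%. The median window held 7 sites of the enzymes in both sets (PvuII sites counted as AluI), with a median G and C content of 62.0% in members and 62.7% in all. A region overlapped 6 of the 77 member windows in hPSC (7.79%, against 30.5% of all windows), 7 in shLUC (9.09% against 15.9%) and 8 in shHNRNPU (10.4% against 17.0%). The interval in hPSC (2.91 to 16.2%) lay below the share of all windows, while those in shLUC (3.73 to 17.8%) and shHNRNPU (4.59 to 19.4%) include it, and starts of a gene are not independent.

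At a wider distance the shares differed between the lists. A region centre within 1 kb of either end of the gene was found for 12 members in hPSC (16.4%, interval 8.79 to 27.0%), where 43.3% of all genes had one. In shLUC it was found for 26 members (35.6%, interval 24.7 to 47.7%) against 27.8% of all genes, and in shHNRNPU for 25 members (34.2%, interval 23.5 to 46.3%) against 28.8%. The members were thus under the genome-wide share in untreated cells and above it in the hairpin lists, where the intervals include the genome-wide share. The higher shares in the hairpin lists came from HOX genes, with 7 of 39 genes in hPSC (17.9%, interval 7.54 to 33.5%), 17 in shLUC (43.6%, interval 27.8 to 60.4%) and 18 in shHNRNPU (46.2%, interval 30.1 to 62.8%). The hPSC interval overlaps those of both hairpin lists. Counted by regions, 51.5% of the 33 shLUC regions at HOX genes (interval 33.5 to 69.2%) were centred within 1 kb of a HOX gene end. In shHNRNPU it was 58.1% of 31 regions (interval 39.1 to 75.5%) and in hPSC 23.1% of 26 (interval 8.97 to 43.6%), and these intervals overlap. The hairpin lists shared 27 HOX regions at the same coordinates, so they are not separate evidence. Bases within 1 kb of an end made up 27.4% of the HOX windows, so the hPSC share was close to that of the bases themselves. For all genes the shares of regions were 28.7% in hPSC, 19.4% in shLUC and 21.4% in shHNRNPU, with 4.88% of window bases that close to an end. The other 34 members lay below the share of all genes in hPSC, with 5 genes (14.7%, interval 4.95 to 31.1%). In shLUC they had 9 genes (26.5%, interval 12.9 to 44.4%) and in shHNRNPU 7 (20.6%, interval 8.70 to 37.9%). Both of these intervals include the share of all genes.

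**Figure D3:**
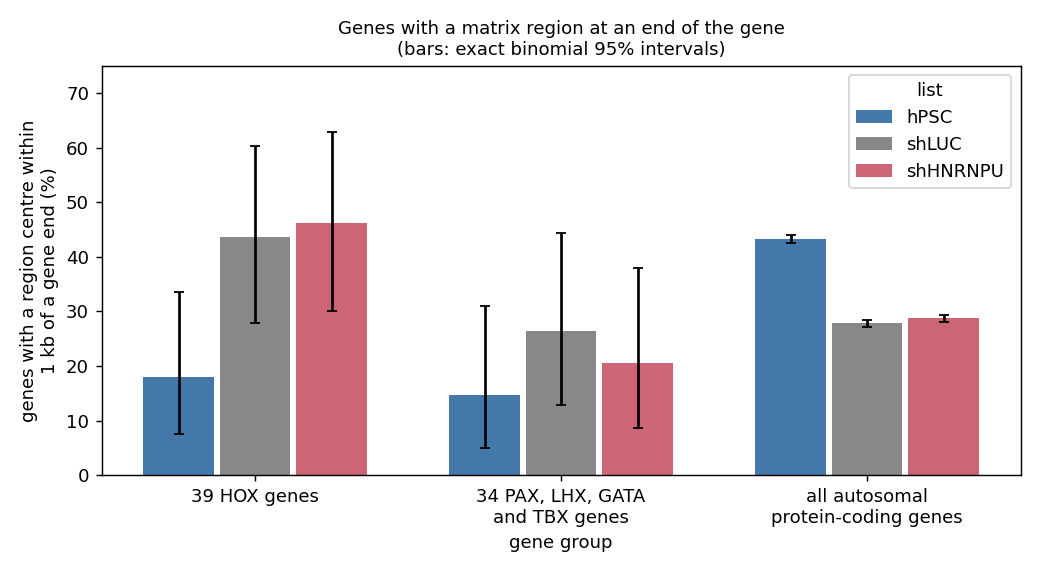
Percent of genes with a region centre within 1 kb of either end of the gene (y axis) for HOX genes, the other members and all autosomal protein-coding genes (x axis) in the hPSC, shLUC and shHNRNPU lists. Bars start at 0 and error bars are exact binomial 95% intervals. Among all genes the hPSC bar is the highest (43.3%), and among HOX genes it is the lowest (17.9%, against 43.6% and 46.2% in the hairpin lists).

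Counted in the gene body alone, hPSC had the fewest members with a region. A region overlapped the body of 33 members in hPSC (45.2%, interval 33.5 to 57.3%), 46 in shLUC (63.0%, interval 50.9 to 74.0%) and 49 in shHNRNPU (67.1%, interval 55.1 to 77.7%). Among all genes the shares ran the other way, with 59.3% in hPSC, 54.0% in shLUC and 53.3% in shHNRNPU, and the shLUC interval includes the share of all genes. The median member body is 9.26 kb against 24.5 kb for all genes, with 3.8 kb for HOX genes and 27.9 kb for the other members. A short body has less room for a region, and these shares were not matched for length. The low hPSC share came from HOX genes, of which 13 of 39 (33.3%) had a region in the body, whereas 20 of the other 34 members did (58.8%).

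The HOX clusters were counted as units, from 10 kb before the first to 10 kb after the last gene. The 4 clusters together spanned 0.608 Mb and held 30 hPSC regions (interval 20.2 to 42.8), 34 shLUC regions (interval 23.5 to 47.5) and 33 shHNRNPU regions (interval 22.7 to 46.3). At the density of all gene windows a stretch of this length would hold 11.2, 11.0 and 10.2. The cluster counts of the lists lay well within each other's intervals.

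HOXA on chromosome 7 held 6 hPSC, 8 shLUC and 8 shHNRNPU regions. The hairpin lists had regions in HOXA2, which acts in the hindbrain, in HOXA3 and HOXA4, and again in HOXA10 and HOXA11, and 7 regions of the cluster had the same coordinates in both. Between HOXA4 and HOXA10 they had none, so that HOXA5, HOXA6 and HOXA7 stood at 0 in shLUC and shHNRNPU. The hPSC list had 3 regions there, starting at 27150484, 27160865 and 27166327, and counted 1, 1 and 3 regions for these genes. HOXA2 was the reverse, with 0 regions in hPSC and 3 in each hairpin list. At the HOXA13 end, the gene for the most distal limb and genital identity, hPSC and shLUC shared the region at 27192097 to 27192496, and shHNRNPU had one at 27199670 to 27200069 instead, at the gene start.

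HOXD on chromosome 2 (176087487 to 176190907) was the densest cluster, with 9 hPSC, 11 shLUC and 11 shHNRNPU regions. It held 5 of the 7 sites at which regions of all 3 lists, counted in member windows, overlapped one another. These lay in EVX2 beside HOXD13, in HOXD13, at HOXD9, in HOXD8 and in HOXD3. At each the hPSC region was offset from the hairpin region, as in HOXD8, where it began at 176129994 and the hairpin regions at 176130035. HOXD13 had 4, 4 and 3 regions in hPSC, shLUC and shHNRNPU, HOXD11 3, 4 and 4, and HOXD9 3 in each. These genes pattern the limb, and their windows overlap and share regions. HOXD1, at the other end, had a region in hPSC and shHNRNPU but none in shLUC.

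HOXC on chromosome 12 (53938831 to 54056030) held 5 hPSC, 8 shLUC and 6 shHNRNPU regions. All 6 shHNRNPU regions were also in shLUC, in HOXC13, HOXC12, HOXC11, HOXC9 and HOXC8 and in the stretch shared by HOXC4 and HOXC5. No hPSC region overlapped a hairpin region in this cluster. HOXC10 had a region in hPSC only, and HOXC11 in the hairpin lists only.

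HOXB on chromosome 17 (48528526 to 48728750) held 10 hPSC, 7 shLUC and 8 shHNRNPU regions, some of them in the long gap between HOXB9 and HOXB13, outside the window of any HOX gene. Within gene windows each list had 6. HOXB3, HOXB5 and HOXB9 carried regions at the same coordinates in both hairpin lists, at 48550825 and 48564164, at 48593219 and at 48625933. HOXB13 had 1 region, in shLUC alone. HOXB7, HOXB8 and HOXB9 each had 3 regions in hPSC and 1 or 2 in the hairpin lists.

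**Figure D4:**
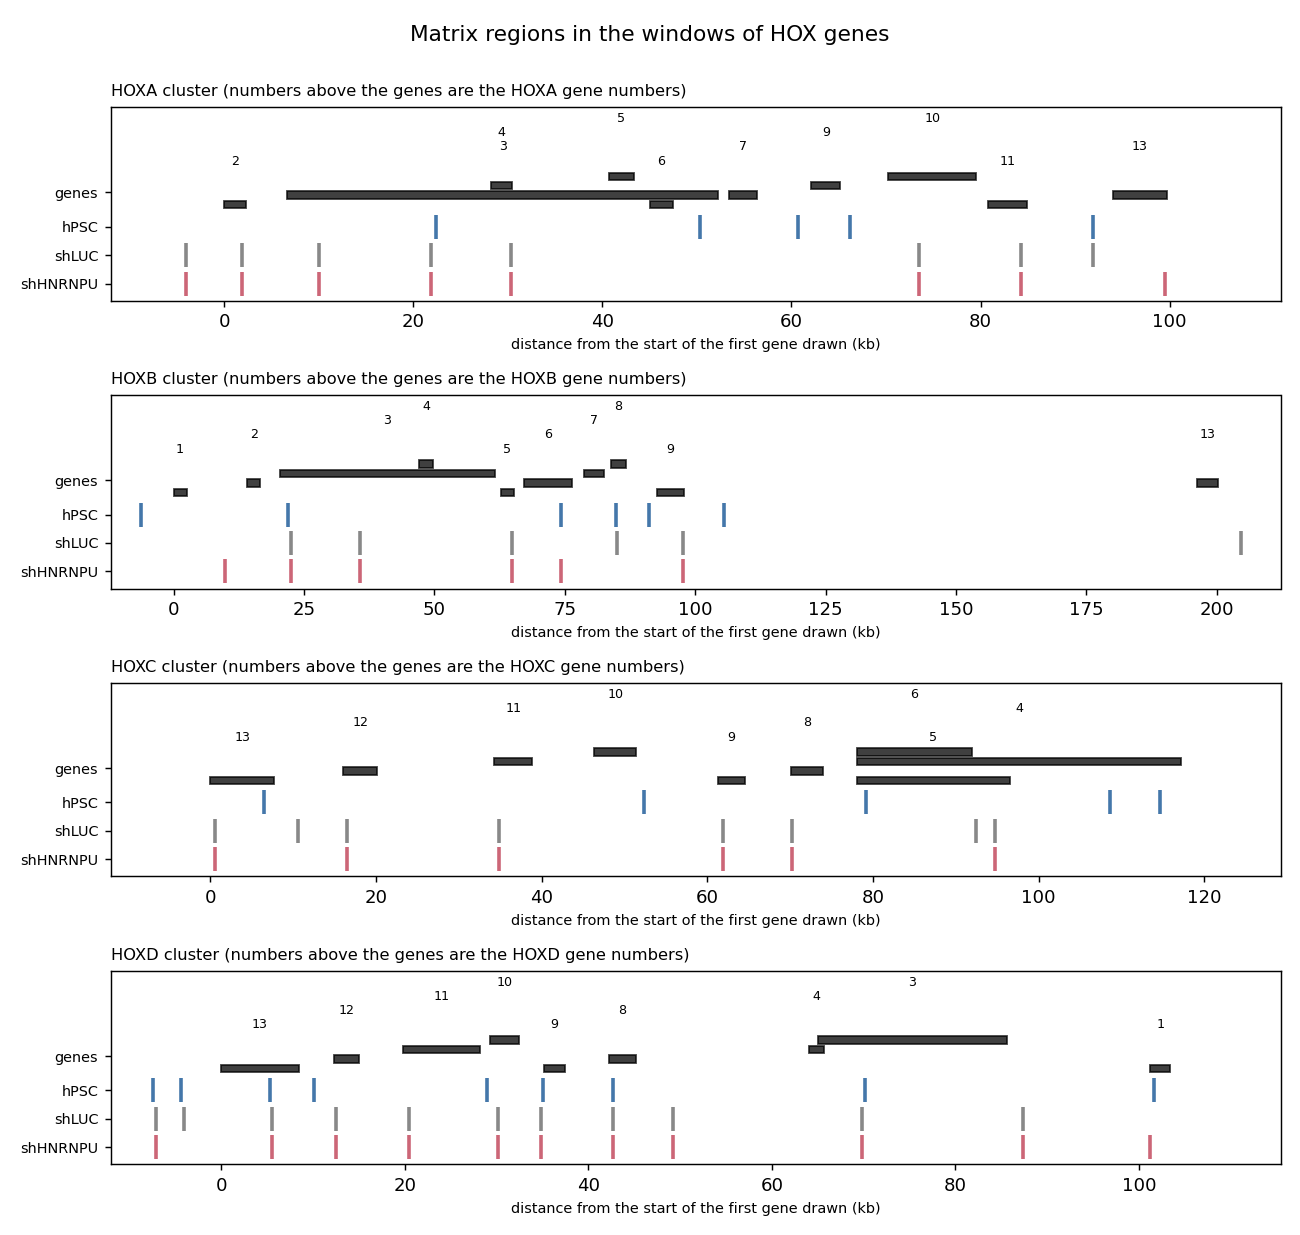
Positions of regions in HOX gene windows along the 4 clusters, as distance in kb from the start of the first gene drawn (x axis), with 1 tick per region in the hPSC, shLUC and shHNRNPU rows and black boxes for genes. Regions between the windows of HOXB9 and HOXB13, and 1 HOXA gene with a region in its window alone, are not drawn. Ticks of the shLUC and shHNRNPU rows stand above one another at 27 of 33 shLUC regions, and the hairpin rows are empty from HOXA5 to HOXA9.

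PAX genes had fewer regions in shHNRNPU than in either control, with 26 hPSC, 24 shLUC and 17 shHNRNPU regions over 9 genes. The intervals of these counts overlap (17.0 to 38.1, 15.4 to 35.7 and 9.90 to 27.2). PAX5, which directs B cell identity and is the longest member (201.0 kb), had 6 regions in hPSC, 5 in shLUC and 7 in shHNRNPU. It also held a site common to the 3 lists, where the hPSC region began at 37002565 and the hairpin regions at 37002576. PAX7, a factor of muscle stem cells and neural crest, had 3, 4 and 3 regions, and PAX3, its close relative, had 4, 2 and 1. PAX6, required for the eye, had 3 regions in hPSC, 3 in shLUC and 1 in shHNRNPU. PAX1 had 2, 3 and 1. PAX9, which acts in teeth and pharyngeal pouches, had 3 in hPSC, 2 in shLUC and 0 in shHNRNPU. Both PAX9 regions of shLUC, at 36647959 to 36648358 and 36655970 to 36656369 on chromosome 14, had the same coordinates in hPSC. PAX2 and PAX8, factors of the kidney, had 3 and 1 regions in each list. PAX4 had 1 region in hPSC, 1 in shLUC and 0 in shHNRNPU. No PAX flank held a shHNRNPU region outside the gene body, where shLUC had 6 and hPSC 10.

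LHX genes had fewer regions in the untreated list than in the hairpin lists, with 9 hPSC, 20 shLUC and 17 shHNRNPU regions over 8 genes. The intervals of these counts overlap (4.12 to 17.1, 12.2 to 30.9 and 9.90 to 27.2). All 8 had a region in each hairpin list (interval 63.1 to 100%), against 70.5% of all genes in shLUC and 69.3% in shHNRNPU. The interval includes both of these shares. In hPSC 5 had a region (62.5%, interval 24.5 to 91.5%), and the interval includes the 76.3% of all genes. LHX2, a factor of the forebrain and eye field, had 0 regions in hPSC, 2 in shLUC and 1 in shHNRNPU. LHX3, needed for the pituitary and motor neurons, had 0, 3 and 3, with the same 3 positions in both hairpin lists, one of them covering the start shown above. LHX5 had 0, 2 and 3. LHX1, a factor of the head organizer and the kidney, had 2, 4 and 2 regions, and it held a site common to the 3 lists in the gene body. LHX4 had 2, 3 and 1, and LHX8 2, 3 and 4. LHX6 and LHX9 had 2, 1 and 1 and 1, 2 and 2 regions.

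GATA genes also had the fewest regions in hPSC, with 5 (interval 1.62 to 11.7) against 10 in each hairpin list (interval 4.80 to 18.4), and the intervals overlap. In hPSC 4 of the 5 regions lay in GATA4, a factor of heart and endoderm, which had 4 regions in shLUC and 2 in shHNRNPU. GATA6, which marks primitive endoderm, had 0 in hPSC, 3 in shLUC and 2 in shHNRNPU. GATA5 had 0, 2 and 2. GATA2, needed for blood stem cells, had 0, 1 and 3 regions, and the shHNRNPU regions included 2 in the gene that neither control had. GATA3, a factor of T cells and trophoblast, had 1, 0 and 1.

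TBX genes, like PAX genes, had the most regions in untreated cells, with 21 hPSC, 13 shLUC and 12 shHNRNPU regions over 12 genes. All 12 had a region in hPSC, 9 in shLUC and 8 in shHNRNPU. TBX20, a factor of the developing heart, had 3 regions in hPSC and 0 in both hairpin lists. TBX4, the hindlimb factor, had 3, 1 and 1, TBX2 had 2, 0 and 1, and TBX19, a pituitary factor, had 1, 0 and 0. TBX18, which marks the epicardium, had 3, 3 and 4 regions. TBX5, the forelimb and heart factor, had 2 in each list, and TBX1 and TBX15 had 1 in each. TBX3 had 2, 1 and 1, and TBX21, which directs T helper cells, had 1, 2 and 1. TBX6, a factor of paraxial mesoderm, and TBX10 had 1, 1 and 0.

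To ask what HNRNPU knockdown changed at these genes, region numbers were compared between shHNRNPU and shLUC. Fewer regions were counted in shHNRNPU for 23 members (31.5%), against 25.2% of all genes, and more for 11 members (15.1%), against 17.7%. The number was equal for 39 members. These shares were near the background, and the shHNRNPU list is also shorter. Of the 39 HOX genes 26 had equal numbers, 9 fewer and 4 more, while 14 of the other 34 members had fewer and 7 more.

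The regions themselves were kept more at HOX genes than elsewhere among the members. Of the 100 shLUC regions in member windows 65 had a shHNRNPU region (65.0%, interval 54.8 to 74.3%), all at the same coordinates, against 70.7% in all gene windows. At HOX genes it was 27 of 33 (81.8%, interval 64.5 to 93.0%) and at the other members 38 of 67 (56.7%, interval 44.0 to 68.8%), with intervals that overlap. The HOX interval includes the 70.7% of all gene windows, and the interval of the other members lies below it. Counted from shHNRNPU, 65 of 87 member regions were in shLUC (74.7%), against 76.3% in all gene windows.

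The untreated list was then set against the hairpin control, which shares the shLUC list with the comparison above. Members with fewer regions in hPSC than in shLUC numbered 33 (45.2%), against 30.8% of all genes, and those with more 20 (27.4%), against 36.7%. All genes thus had more regions in hPSC more often than fewer, and the members the reverse. HOX genes accounted for 20 of the 33 and for 10 of the 20. Of the 87 hPSC regions in member windows 19 overlapped a shLUC region (21.8%, interval 13.7 to 32.0%), against 16.0% in all gene windows, and 6 had the same coordinates. Regions of untreated and hairpin cells thus lay mostly at different positions within the same windows, as they did across all genes. The hPSC cells carried no hairpin, and no batch is given in the labels. An effect of the hairpin itself and a difference in preparation or region calling cannot be told apart.

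Regions of the 3 lists were joined where they overlapped, which gave 185 sites in member windows. Of these 103 had a region of 1 list, 75 of 2 lists and 7 of all 3. Only regions that reached a member window were joined. At the edge of the TBX18 window, a site of both hairpin lists also overlapped an hPSC region outside the window. The most frequent kinds were sites of hPSC alone (63) and sites shared by shLUC and shHNRNPU (58). There were 23 sites of shLUC alone, 17 of shHNRNPU alone, 12 of both controls without shHNRNPU and 5 of hPSC and shHNRNPU. No member had a region at identical coordinates in all 3 lists.

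Genes that work with the members were counted in the same way, beside the shares of all genes with a region (76.3% in hPSC, 70.5% in shLUC and 69.3% in shHNRNPU) and with fewer (25.2%) or more (17.7%) regions in shHNRNPU than in shLUC. HOX cofactors of the PBX, MEIS and PKNOX families had a region in 9 of 9 genes in hPSC and in 8 in each hairpin list, with 3 genes fewer and 1 more in shHNRNPU than in shLUC. Polycomb genes, which code for the repressors of HOX clusters, had one in 23 of 25 genes in hPSC, 22 in shLUC and 21 in shHNRNPU, with 9 fewer and 5 more. Partners of LHX and GATA factors (LDB, LMO and ZFPM genes) had one in 7 of 8 genes in each list, with 4 fewer and 2 more. Their densities in shLUC were 22.2, 27.8 and 17.6 regions per Mb, against 37.9 for the members, but their median windows were longer (159 kb, 64.8 kb and 73.1 kb against 29.3 kb), and density was lower in longer windows. Other developmental factor genes (DLX, IRX, NKX and OTX genes among them) had a region in 24 of 35 genes in hPSC, 33 in shLUC and 30 in shHNRNPU. Their densities were 37.2, 53.6 and 49.3 regions per Mb, above the 33.0, 37.9 and 33.0 of the members. Their median window was 25.5 kb, so a high density was not particular to the members. In shHNRNPU 10 of these 35 had fewer regions than in shLUC and 6 more.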

How the data were processed

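MAR-seq was performed on H1 cells in 3 groups of 2 samples. Nuclei were extracted with detergent, fixed, cut with restriction enzymes and stripped to the matrix, whose DNA was sequenced in pairs beside a sonicated input. The submitters' processing notes name cutadapt, Bowtie2, SAMtools, MACS2, deepTools and hg38, with no role. Calling threshold, use of the input and pooling of samples are not given in the sources used here. The deposited lists hold a start and an end per region, with a score of 0 throughout, so scores were not used. The lists were matched to groups by name. Depth is unknown.

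Regions were counted with Python 3.11.15, numpy 2.4.6, pandas 2.3.3 and scipy 1.17.1 (figures: matplotlib 3.10.9). Gene positions, starts and sequences are RefSeq's on GRCh38.p14, without strand or exons for gene bodies. A gene end is either boundary of the body. Of the 73 members, 46 had a start in the sequence table. Members described singly were the 8 with most regions, PAX, LHX, GATA and TBX genes whose counts differ by 2 or more between lists, and genes named to account for the other members. For 1 HOXA gene, counted in the totals, single values are not reported here. The members and lists were chosen with earlier results of these data known. The counting code was tested on simulated data and found all 143 genes with removed regions and all 200 with added ones. With 1 list per group no test was made; alternatives were other windows, counting by centre, merging, other overlap rules, 2 kb from gene ends and rescaling to equal list lengths.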

Additional observations from a re-analysis of the deposited data

How the results depend on the processing

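Of 71 values recomputed for 18 results, 62 stayed within their interval, or within 1.5 times for counts, and 9 did not. The window set most of these. With the gene body alone, the share of members with a region was 45.2% in hPSC, 63.0% in shLUC and 67.1% in shHNRNPU. The hPSC share thus fell below that of all genes (59.3%), whose median body is longer, and hPSC went from the highest of the lists to the lowest. In the same setting members with fewer regions in shHNRNPU than in shLUC numbered 10 and those with more in hPSC than in shLUC 12. With 20 kb each side the share was 98.6% in shLUC and 94.5% in shHNRNPU. The share of hPSC member regions with a shLUC region was 49.4% when a region within 5 kb counted, and the share of hPSC member regions near a gene end was 27.6% at 2 kb, both by construction wider. Counting by centre, merging regions less than 1 kb apart and overlap of 50% moved no result past these bounds. Rescaling to equal list lengths cannot change the order of counts this small, so its unchanged values carry no information on list length.

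No paired analysis was possible because the samples of a group have no values of their own beside the single list, which also left no replicate to omit in turn. Read depth and calling threshold are unknown, so the error in calling a region present in one list and absent from another could not be estimated.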

Other observations

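Non-coding RNA genes lie among the HOX genes, and some held regions. They were chosen after the regions had been seen. Several overlap a HOX gene, and their regions are then those already counted for it. HOTAIR, an antisense RNA gene that overlaps HOXC11, had 1 region in shLUC and 1 in shHNRNPU, the one described in HOXC11, and 0 in hPSC. HOXC13-AS and HOXD-AS2 had the same counts. HOXA-AS3 and HOXB-AS4 had 1 region in hPSC and 0 in the hairpin lists. HAGLR, which shares regions with HOXD1 and HOXD3, had 1 region in hPSC, 1 in shLUC and 2 in shHNRNPU. HOTTIP, beyond HOXA13, and HAGLROS had 0 in each list.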
